A study of Mus musculus with 4 samples.

Results

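Endothelial and primitive blood genes were followed in mouse embryonic stem (ES) cells and in the embryoid bodies (EBs) grown from them, floating aggregates in which germ layer derivatives start to appear. The set has 10 genes of the 19938 measured by a probe set with a single gene symbol. It was defined by name, with earlier results of these data known, so its counts beside those of all genes are descriptive. It holds the receptors Kdr, Flt1, Tek, Tie1 and Aplnr and the adhesion molecule Pecam1. The others are the blood transcription factors Tal1, Lmo2 and Gata1, and the embryonic globin Hbb-bh1. Each of the 10 is read by 1 probe set. RNA was profiled on 4 Affymetrix arrays, 1 for each of undifferentiated ES cells of the D3 line at day 0, untreated EBs at day 7, EBs treated with retinoic acid (RA), the natural ligand of the retinoic acid receptors, and EBs treated with bexarotene, a synthetic agonist of the retinoid X receptors (RXRs). All EBs spent 2 days in hanging drops and 5 days in suspension. The bexarotene dose was 50 nM. The RA dose was 5 µM per the labels, whereas the article gives a dose in the nanomolar range, so the doses of the ligands differed by either account. Each condition is 1 culture of 1 line, and the EBs were analysed whole.

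Endothelial cells and the first blood cells arise from a common mesoderm that carries the vascular endothelial growth factor (VEGF) receptor Kdr. Its descendants switch on the Ets factor Etv2 and then either endothelial junction and receptor genes, such as Cdh5, Tek and Tie1, or the blood program led by Tal1, Lmo2 and Gata1, which ends in embryonic globins. Several of these genes are also used elsewhere: Pecam1 and Tek are not limited to vessels, and Kdr and Aplnr mark early cardiovascular mesoderm before vessels form.

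Values are log2 signal as deposited, and a difference is 1 array minus another in log2 signal. The threshold was 1.5-fold, 0.585 on that scale. With 1 array per condition there was no replicate, so no test was made and no p-value is given. For scale, bexarotene minus RA was computed for every gene, and its robust SD among genes of like signal served as a yardstick. It was 0.109 to 0.137 at the signals of the 10 genes. These were the 2 arrays closest to each other, and the value includes real differences between the ligands, so it is no replicate error. Over all genes the robust SD was 0.115 for bexarotene minus RA, and 0.172 and 0.167 for RA and bexarotene minus untreated EBs. Against ES cells it was 0.317 for untreated EBs and 0.302 for each ligand, so the yardstick is narrow for those comparisons. In whole EBs, fewer cells of a type and less RNA per cell cannot be told apart.

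In short, the genes took 4 patterns. Aplnr, Kdr and Hbb-bh1 were higher in untreated EBs than in ES cells and lower with either ligand than in untreated EBs. Flt1 was higher in every EB array than in ES cells. Pecam1 and Tek were highest in ES cells. Tie1, Tal1 and Gata1 were past 1.5-fold in no comparison, and Lmo2 was at the edge of the threshold in untreated and bexarotene-treated EBs against ES cells.

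The VEGF receptor genes Kdr and Flt1 separated with ligand treatment, so the sequences at their starts are shown as a pair. RefSeq promoters of GRCm38.p6, running from 250 bases before to 50 after the annotated start, were available for 6 of the 10 genes. None was available for Aplnr, Pecam1, Lmo2 or Hbb-bh1. Kdr lies on the minus strand at chr5:75978406-75978705 and Flt1 on the minus strand at chr5:147725962-147726261. Capitals mark matches, on either strand, to CCGGAA (an Ets core), AGGTCA or its variant GGGTCA (nuclear receptor core motifs), AGATAA, or the variant TGATAA, or either of these ending in G (GATA factors), CCACACCC (Klf factors) and TATAAA.
Kdr: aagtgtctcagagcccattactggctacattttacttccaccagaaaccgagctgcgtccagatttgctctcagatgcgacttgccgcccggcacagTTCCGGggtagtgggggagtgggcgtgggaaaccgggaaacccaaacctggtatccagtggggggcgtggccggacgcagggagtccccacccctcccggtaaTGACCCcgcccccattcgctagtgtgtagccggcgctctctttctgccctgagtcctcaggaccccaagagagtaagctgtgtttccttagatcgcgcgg
Flt1: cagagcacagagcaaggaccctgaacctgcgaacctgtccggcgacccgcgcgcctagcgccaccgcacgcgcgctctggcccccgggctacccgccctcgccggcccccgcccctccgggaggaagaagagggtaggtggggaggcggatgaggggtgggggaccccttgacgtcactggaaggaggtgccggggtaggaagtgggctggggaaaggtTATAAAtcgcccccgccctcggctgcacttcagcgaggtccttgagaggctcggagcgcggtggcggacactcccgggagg
The Kdr window held an Ets match at position -153 from the start and a nuclear receptor match at -50, both on the strand opposite to the gene. The Flt1 window held neither and had a TATAAA match at -31. The shorter Ets core GGAA, which is not capitalized, was present in both windows. Of all 32817 promoters of this length, 14.9% held the Ets match, 27.5% a nuclear receptor match and 13.6% TATAAA. A window of Tal1, a gene inside the threshold with both ligands, also held a nuclear receptor match, at -154. A link between these matches and the ligand differences was not tested. Neither window held a GATA match, found in 29.8% of promoters, or CCACACCC, found in 3.56%. The E box CANNTG, which overlapped no other match, was present once in Kdr, at -179, and not in Flt1, and 72.3% of promoters held it. GC content was 60.7% in Kdr and 70.7% in Flt1, against a median of 52.7% over all promoters. Each match is a description of letters and not a site.

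**Figure D1:**
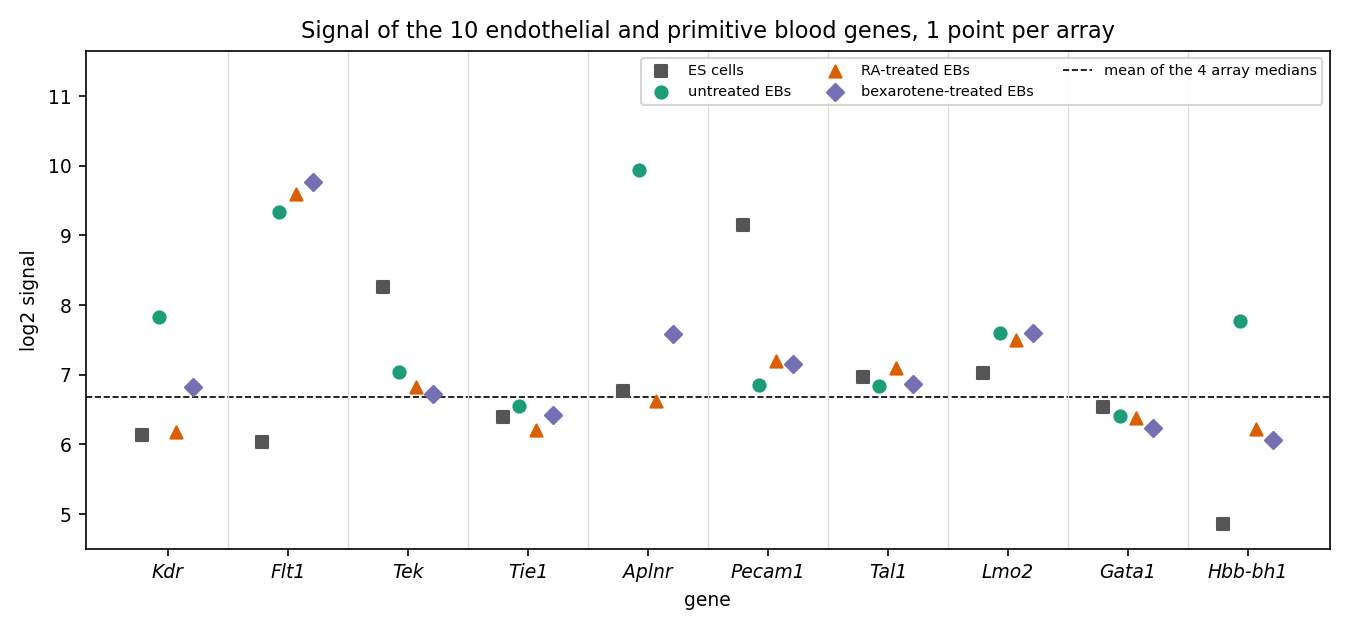
Log2 signal (y axis) of the 10 genes (x axis) on the arrays of ES cells, untreated EBs, RA and bexarotene, 1 point each without replicates, and a dashed line at the mean of the array medians. Aplnr, Kdr and Hbb-bh1 are highest in untreated EBs (9.94, 7.82 and 7.77), whereas Pecam1 and Tek are highest in ES cells (9.15 and 8.26).

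Relative to ES cells, 4 of the 10 genes were past 1.5-fold higher in untreated EBs and 2 were lower, while 11.0% of all genes were past the threshold higher and 8.52% lower. The median difference of the 10 was 0.37, against -0.04 over all genes. The 4 higher genes were Flt1, Aplnr, Hbb-bh1 and Kdr, and the 2 lower genes were Pecam1 and Tek. Lmo2 stood at 0.58, just inside the threshold, and at 0.60 with loess scaling, just past it.

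With RA, none of the 10 genes was past 1.5-fold higher than in untreated EBs and 3 were past it lower, where 2.07% of all genes were higher and 2.22% lower. For bexarotene the counts were again 0 higher and 3 lower, where 1.48% of all genes were higher and 2.15% lower. Aplnr, Kdr and Hbb-bh1 were the 3 genes in both comparisons, which share the 1 untreated array. The medians of the 10 were -0.17 with RA and -0.15 with bexarotene, against 0.00 and -0.01 over all genes. The other 7 members ran from -0.33 to 0.43 over both ligands. Between the ligands, 2 of the 10, Aplnr and Kdr, were past 1.5-fold higher with bexarotene and 0 were lower, where 0.196% of all genes were higher and 0.296% lower.

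**Figure D2:**
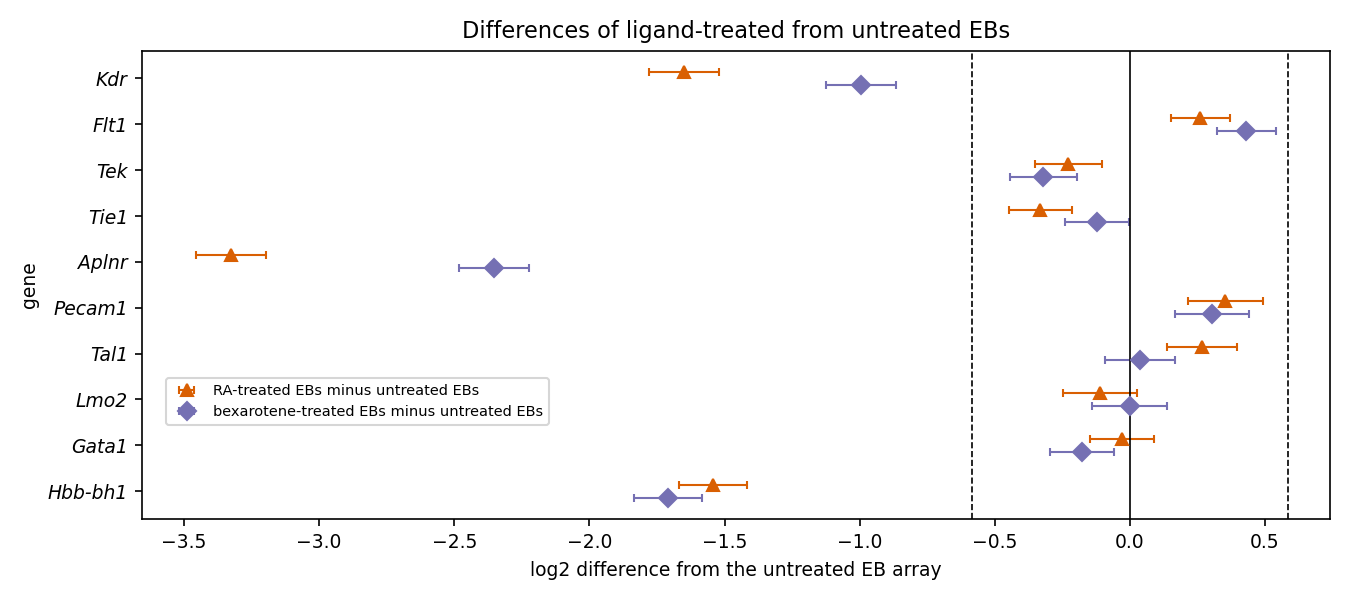
Log2 difference (x axis) of the RA and bexarotene arrays from the untreated EB array for the 10 genes (y axis). Bars span 1 yardstick SD to each side and are no replicate error, and dashed lines mark 1.5-fold. Aplnr (-3.33 and -2.35), Kdr (-1.65 and -0.996) and Hbb-bh1 (-1.54 and -1.71) lie left of the threshold with both ligands.

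Kdr encodes the main signalling receptor for VEGF. On the log2 scale its signal measured 6.13 for ES cells, 7.82 in untreated EBs, 6.17 under RA and 6.83 under bexarotene. The RA array was within the yardstick of ES cells, with a gap of 0.04, and the other steps in the order were beyond it. Kdr was 3.23-fold higher in untreated EBs than in ES cells, 3.14-fold lower with RA and 1.99-fold lower with bexarotene than in untreated EBs. Between the ligands, bexarotene stood 1.57-fold above RA.

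Flt1 encodes the second VEGF receptor, which binds VEGF and placental growth factor and in a soluble form acts as a decoy. Its signal was 6.03 for ES cells, 9.34 in untreated EBs, 9.60 under RA and 9.77 under bexarotene. The EB arrays stood close together and far above ES cells. The difference from ES cells was 3.31 in untreated EBs, 3.57 under RA and 3.74 under bexarotene, the largest of the 10 genes in each case. Relative to untreated EBs, Flt1 differed by 0.26 with RA and by 0.43 with bexarotene, above the yardstick of 0.109 and inside the threshold, whereas Kdr differed by -1.65 and -0.996.

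The other genes of VEGF signalling were taken from a list written for the endothelium. Flt4, the receptor of lymphatic and early venous endothelium, had signals of 7.63, 7.71, 6.89 and 6.74 in ES cells, untreated EBs, RA and bexarotene, and was 1.77-fold lower with RA and 1.96-fold lower with bexarotene than in untreated EBs. Nrp1, a VEGF co-receptor, was 8.34-fold higher in untreated EBs than in ES cells, and 2.07-fold lower with RA and 1.68-fold lower with bexarotene than in untreated EBs. Its relative Nrp2 differed from untreated EBs by -0.68 with RA and -0.54 with bexarotene. Of these receptors, Flt1 alone had positive differences with the ligands.

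Among the ligands of these receptors, Pgf, placental growth factor, was 5.17-fold higher in untreated EBs than in ES cells, and was 2.21-fold lower with RA and 1.75-fold lower with bexarotene. Vegfa, the principal VEGF, was 2.03-fold higher in untreated EBs than in ES cells and differed from untreated EBs by -0.25 with RA and -0.20 with bexarotene. Vegfb, Vegfc and Vegfd differed by at most 0.07 in size from untreated EBs with either ligand. Pgf was therefore the single VEGF family ligand past 1.5-fold between untreated and ligand-treated EBs.

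Tek and Tie1 encode the receptor pair of the angiopoietin pathway, which keeps vessels quiescent. The signal of Tek was 8.26 for ES cells, 7.04 in untreated EBs, 6.82 under RA and 6.72 under bexarotene. It was highest in ES cells, and the ligand arrays were within the yardstick of each other. Untreated EBs were 2.33-fold below ES cells, RA-treated EBs 2.73-fold and bexarotene-treated EBs 2.91-fold.

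The signal of Tie1 was 6.39 for ES cells, 6.54 in untreated EBs, 6.21 under RA and 6.42 under bexarotene. All 4 values were below the array medians, which ran from 6.66 to 6.69, and the largest gap between neighbours in the order was 0.18. Against untreated EBs, Tie1 differed by -0.33 with RA and -0.12 with bexarotene, both inside the threshold, where the yardstick was 0.118. Of the angiopoietin genes, Angpt2, a context-dependent antagonist of Tek, was 3.36-fold higher in untreated EBs than in ES cells, and 2.55-fold lower with RA and 2.94-fold lower with bexarotene than in untreated EBs. Angpt1, the agonist, had signals of 4.26, 4.92, 5.06 and 5.23, below or near the lower quartile of each array, and was past 1.5-fold with neither ligand. Angpt4 differed from untreated EBs by 0.10 with RA and 0.07 with bexarotene.

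Aplnr encodes the apelin receptor, a G protein-coupled receptor of cardiovascular mesoderm and of sprouting endothelium. Its signal was 6.76 for ES cells, 9.94 in untreated EBs, 6.62 under RA and 7.59 under bexarotene. Untreated EBs stood far above the other 3 arrays, and RA-treated EBs were the lowest, 0.14 below ES cells. Aplnr was 9.08-fold higher in untreated EBs than in ES cells, 10.0-fold lower with RA and 5.11-fold lower with bexarotene than in untreated EBs, the largest differences between EB arrays among the 10 genes. It was 1.96-fold higher with bexarotene than with RA.

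The peptide ligands of this receptor were past 1.5-fold with neither RA nor bexarotene. Apln, apelin, had signals of 7.31 in ES cells, 7.87 in untreated EBs, 8.00 under RA and 7.93 under bexarotene. Apela, whose product acts on the receptor during gastrulation, had signals of 11.85, 11.06, 10.58 and 10.55 in the same order. Apela was 1.73-fold lower in untreated EBs than ES cells and differed from untreated EBs by -0.48 with RA and -0.51 with bexarotene, both inside the threshold.

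Pecam1 encodes an adhesion molecule of endothelial junctions that is also present on mouse ES cells. Its signal was 9.15 for ES cells, 6.85 in untreated EBs, 7.20 under RA and 7.15 under bexarotene. ES cells stood apart, and the ligand arrays were within the yardstick of each other and above untreated EBs by 0.35 and 0.30. Untreated EBs were 4.92-fold below ES cells. Markers of pluripotent cells shared the drop from the ES cell array. In 8 of 8 the untreated EB array was past 1.5-fold below it (median -3.10), beside 8.52% of all genes. Their median difference from untreated EBs was 0.67 with RA and 0.36 with bexarotene. With RA 6 of 8 were past 1.5-fold higher, beside 2.07% of all genes. With bexarotene 0 of 8 were, near the 1.48% of all genes. All 8 were lower with bexarotene than with RA (median -0.30), where Pecam1 differed by -0.05, within its yardstick. Tek had the opposite sign to these markers, at -0.23 with RA and -0.32 with bexarotene against untreated EBs. The part of pluripotent cells in the Pecam1 and Tek signal was not tested.

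The 5 other endothelial genes past 1.5-fold lower in untreated EBs than ES cells were Apela, given above, Vegfc (1.56-fold), Eng, a co-receptor for transforming growth factor beta, Mmrn2, an endothelial matrix protein, and Robo4, a guidance receptor of endothelium. Eng, Mmrn2 and Robo4 were 5.62-fold, 3.73-fold and 2.52-fold lower. Their differences from untreated EBs ran from 0.09 to 0.33 over both ligands, so none was past 1.5-fold there.

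The blood transcription factors differed less between the arrays than Kdr or Aplnr did. Tal1, the basic helix-loop-helix factor that starts the blood program, had signals of 6.97 in ES cells, 6.83 in untreated EBs, 7.10 under RA and 6.87 under bexarotene. Lmo2, the bridging protein of the Tal1 complex, had 7.02, 7.60, 7.49 and 7.60, with all EB arrays within the yardstick of their neighbours and ES cells lowest. Against ES cells, Lmo2 differed by 0.58 in untreated EBs and 0.58 with bexarotene, where the robust SD over all genes was 0.317 and 0.302. With loess scaling these differences were 0.60 and 0.61, past 1.5-fold. Gata1, the master factor of red cells and megakaryocytes, had 6.53, 6.41, 6.38 and 6.23, below the array median throughout. The Tal1, Lmo2 and Gata1 differences between EB arrays ran from -0.23 to 0.27, where the yardstick was 0.118 to 0.137.

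Hbb-bh1 encodes the beta-like globin of primitive red cells in the yolk sac. Its signal was 4.86 for ES cells, 7.77 in untreated EBs, 6.22 under RA and 6.06 under bexarotene. Untreated EBs were highest and ES cells lowest, below the lower quartile of that array, 5.19. Hbb-bh1 was 7.49-fold higher in untreated EBs than in ES cells, 2.92-fold lower with RA and 3.27-fold lower with bexarotene than in untreated EBs. The ligand arrays differed from each other by -0.17, and both stayed above ES cells, by 1.36 with RA and 1.20 with bexarotene.

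Of the other embryonic globins, Hba-x, the alpha-like globin of primitive red cells, had signals of 6.70 in ES cells, 9.13 in untreated EBs, 8.14 under RA and 7.70 under bexarotene. The order of its arrays was that of Hbb-bh1, and it was 1.98-fold lower with RA and 2.69-fold lower with bexarotene than in untreated EBs. Hbb-y, a second embryonic beta-like globin, had low signals of 5.35, 5.82, 6.21 and 5.49, and its highest array was RA.

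Other red cell genes did not have the pattern of Hbb-bh1 and Hba-x. The erythroid factor Klf1 had signals of 6.26, 6.07, 5.90 and 5.94 in ES cells, untreated EBs, RA and bexarotene. Alas2, the first enzyme of heme synthesis in red cells, had 5.70, 5.72, 5.65 and 5.66, and Slc4a1, the anion exchanger of the red cell membrane, had 7.11, 6.94, 6.86 and 6.81. None of these was past 1.5-fold in any comparison, and Klf1 and Alas2 were below the array medians throughout.

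Relative to ES cells, the ligand arrays kept part of the untreated pattern. With RA, 2 of the 10 genes, Flt1 and Hbb-bh1, were past 1.5-fold higher and 2, Pecam1 and Tek, were lower, where 10.5% of all genes were higher and 9.19% lower. With bexarotene, 4 were higher, Kdr and Aplnr being added, and the same 2 were lower, where 10.2% of all genes were higher and 9.69% lower. Kdr stood 0.04 above ES cells with RA and 0.70 above with bexarotene, and Aplnr stood at -0.14 and 0.83.

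**Figure D3:**
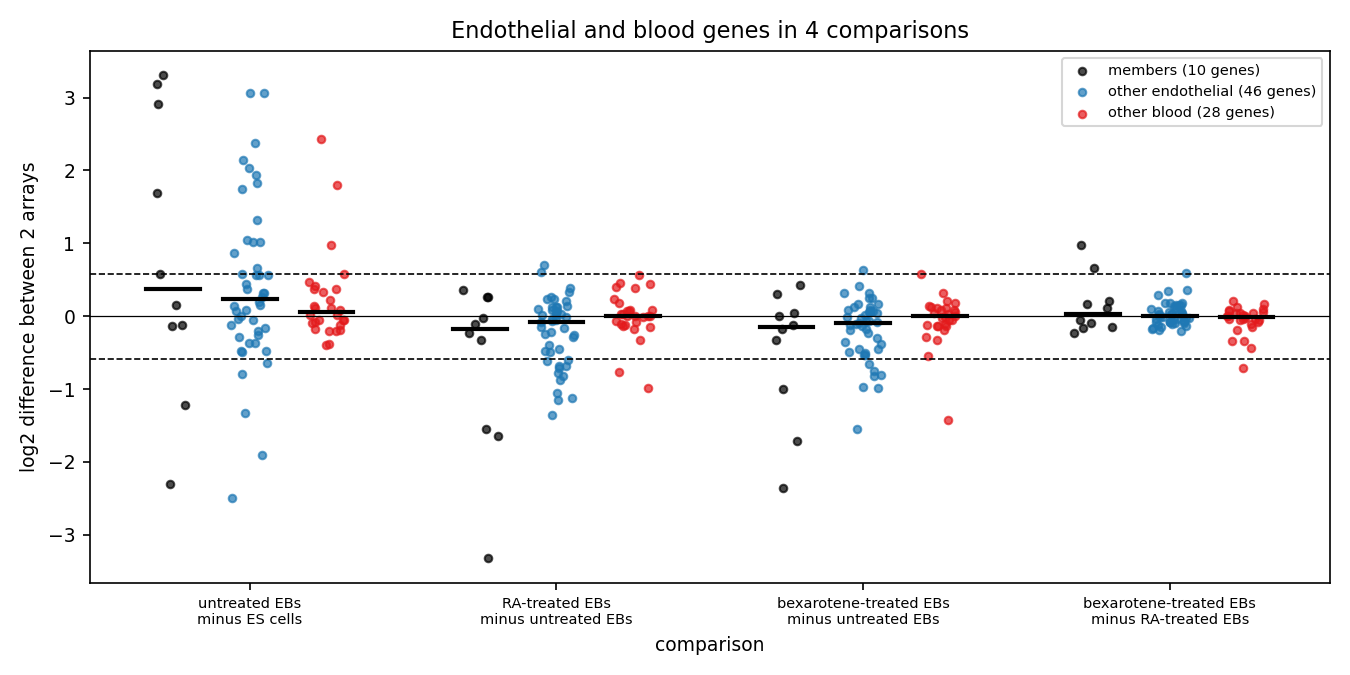
Log2 differences between 2 arrays (y axis) in 4 comparisons (x axis) for the 10 genes, 46 other endothelial genes and 28 other blood genes. Each point is 1 gene, black bars are medians and dashed lines mark 1.5-fold. Most genes lie between the dashed lines in the 3 comparisons among EBs, and the points below them with the ligands are mainly endothelial.

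The other genes of the endothelial and blood programs were counted in the same way. All 46 other endothelial genes listed and 28 of 36 other blood genes had a single-symbol probe set. In untreated EBs against ES cells, 14 of the 46 endothelial genes were past 1.5-fold higher and 5 lower, with a median of 0.23, beside 11.0% of all genes higher and 8.52% lower. Among the 14 were Cdh5, the cadherin of endothelial junctions (4.40-fold), Emcn, a surface sialomucin of capillaries and veins (4.09-fold), Ramp2, the adrenomedullin co-receptor (3.83-fold), and Fli1, an Ets factor of endothelium and blood (2.03-fold). Endothelial markers were not uniformly higher: Cldn5, a tight junction protein, differed by -0.06, Icam2, an adhesion molecule, by 0.15, and Vwf, von Willebrand factor, by -0.37. Of the 28 blood genes 3 were higher, Hba-x, Cd44 and Kit, and 0 were lower, with a median of 0.06, and the higher count is near the 11.0% of all genes.

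With RA, 12 of the 46 other endothelial genes were past 1.5-fold lower than in untreated EBs and 2 higher, and with bexarotene 7 were lower and 1 higher. Over all genes, 2.22% were lower and 2.07% higher with RA, and 2.15% lower and 1.48% higher with bexarotene. The medians over the 46 were -0.07 and -0.09, and 32 of the 46 with RA and 38 with bexarotene were inside the threshold. Cdh5 had signals of 6.16 in ES cells, 8.30 in untreated EBs, 7.61 under RA and 7.64 under bexarotene, and was 1.61-fold and 1.58-fold lower with the ligands. Ramp2 was 1.72-fold lower with RA and 1.76-fold lower with bexarotene, and Hhex, a homeobox gene of early endothelium, blood and endoderm, 1.83-fold and 1.97-fold. Including Flt4, Nrp1, Pgf and Angpt2, these 7 genes were past the threshold lower with both ligands.

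The remaining 5 endothelial genes were past 1.5-fold lower with RA and inside the threshold with bexarotene. Emcn differed from untreated EBs by -1.12 with RA and -0.53 with bexarotene, and was 1.51-fold higher with bexarotene than with RA. Cd34, a sialomucin of endothelium and blood progenitors, differed by -0.71 and -0.36, Etv2, the Ets factor that starts both programs, by -0.61 and -0.46, Ecscr, a regulator of endothelial migration, by -0.60 and -0.45, and Nrp2 as given above. Apart from Emcn, the differences between the ligands in these genes were inside the threshold, from 0.14 to 0.36.

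Of the 28 other blood genes, Hba-x and Cd44, a hyaluronan receptor that is not particular to blood, were past 1.5-fold lower with RA, and Hba-x with bexarotene. Over all genes, 2.22% were lower with RA and 2.15% with bexarotene. Cd44 differed from untreated EBs by -0.76 with RA and -0.55 with bexarotene. Gata2, a factor of blood progenitors that is also expressed in neurons and trophoblast, stood at 0.57 with RA and 0.59 with bexarotene, on either side of the threshold. Runx1, the factor of definitive blood, had signals of 8.77, 9.14, 9.58 and 9.25 in ES cells, untreated EBs, RA and bexarotene and was inside the threshold against untreated EBs. The medians over the 28 were 0.00 with both ligands.

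**Figure D4:**
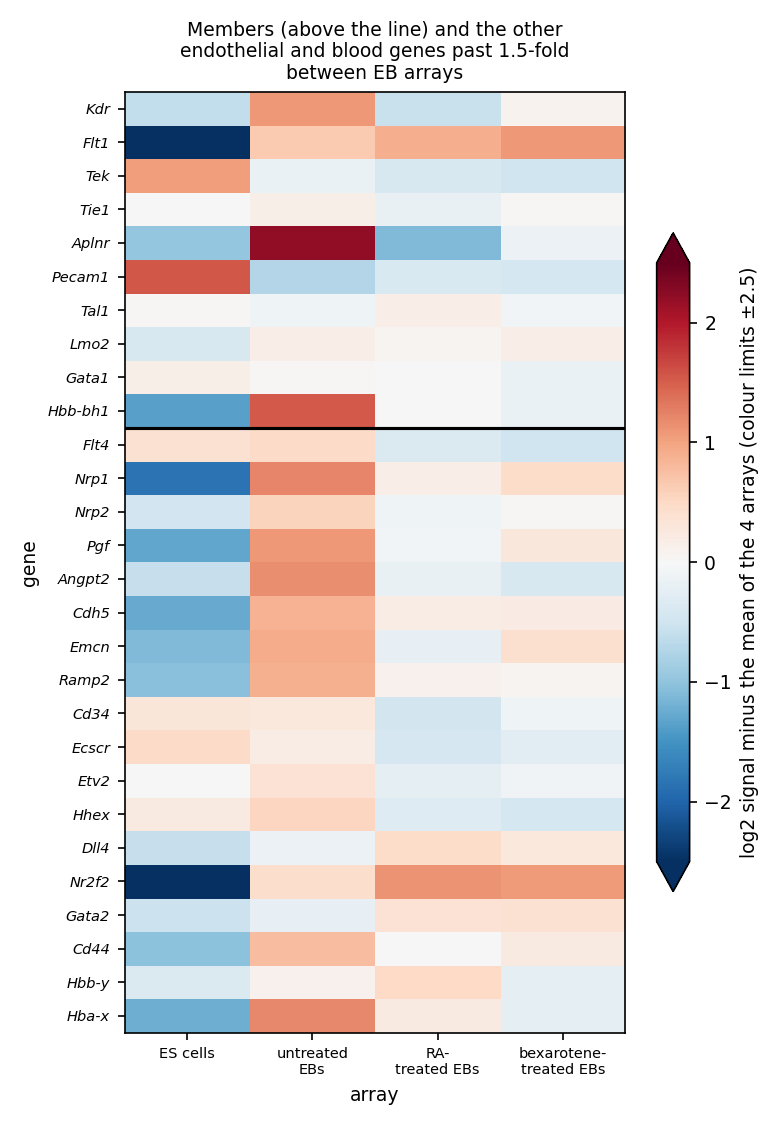
Log2 signal of each gene minus its own mean over the 4 arrays (colour, limits at ±2.5) for the 10 genes and the 18 other endothelial and blood genes past 1.5-fold between any EB arrays (rows), in the 4 arrays (columns). Aplnr, Kdr, Hbb-bh1, Nrp1, Pgf, Angpt2 and Hba-x are highest in untreated EBs, whereas Nr2f2 and Flt1 are low in ES cells alone.

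The genes most like Aplnr, Kdr and Hbb-bh1 were found by the distance between log2 signals centred on each gene's own mean over the 4 arrays, which describes 4 points and no more. Nearest to Kdr were Rhoj, a small GTPase of endothelium (distance 0.245), Scara3 (0.307) and Tnc, the matrix protein tenascin C (0.315). Nearest to Hbb-bh1 were Dgkk (0.189), Pcdh7 (0.213) and Dkk1, a Wnt antagonist (0.248). Aplnr had no neighbour as close, its nearest being Car3 (0.543), Oprk1 (0.661) and Foxa1, a forkhead factor of endoderm (0.718).

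Markers of other cell types also differed between the arrays. Of 9 cardiac genes, 5 were past 1.5-fold lower with RA than in untreated EBs and 4 with bexarotene, with 0 higher. Over all genes, 2.22% were lower with RA and 2.15% with bexarotene, and 2.07% and 1.48% were higher. The log2 of their summed signal was 10.2 for ES cells, 11.3 in untreated EBs, 10.4 under RA and 10.5 under bexarotene, the same order as Kdr. Of 8 genes of mural cells and fibroblasts, 3 were lower with RA and 2 with bexarotene, and their summed signal was 10.1, 11.3, 10.5 and 10.8. Smooth muscle actin, Acta2, had signals of 7.14, 10.28, 8.82 and 9.27 in ES cells, untreated EBs, RA and bexarotene.

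Of 8 measured early mesoderm genes, 2 were past 1.5-fold lower with each ligand, Hand1 and Foxf1 with RA and Eomes and Mixl1 with bexarotene. Over all genes, 2.22% were lower with RA and 2.15% with bexarotene. The listed gene T (brachyury) had no single-symbol probe set and is not counted. The article reports T as lower with both ligands than in untreated EBs. Foxf1, a forkhead factor of lateral mesoderm, had signals of 7.45, 9.11, 7.85 and 9.13, so bexarotene and untreated EBs were alike in it, unlike Kdr and Aplnr. Of 9 neural genes, 8 were past 1.5-fold higher with each ligand, where 2.07% of all genes were higher with RA and 1.48% with bexarotene. Their summed signal was 10.9 in untreated EBs, 12.3 under RA and 12.0 under bexarotene. Of 9 visceral endoderm genes, 0 were past 1.5-fold with either ligand, and their summed signal was 11.5, 12.6, 12.9 and 12.7. Of 6 measured trophoblast genes, 1 was higher with RA (Plac1), 1 lower with RA (Hand1) and 1 lower with bexarotene (Eomes). Hand1 and Eomes are also in the early mesoderm list and were counted there. The summed signals of the trophoblast genes were 10.2, 10.3, 10.1 and 10.1. The part of these cell types in the signals of Aplnr, Kdr and Hbb-bh1 was not tested.

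**Figure D5:**
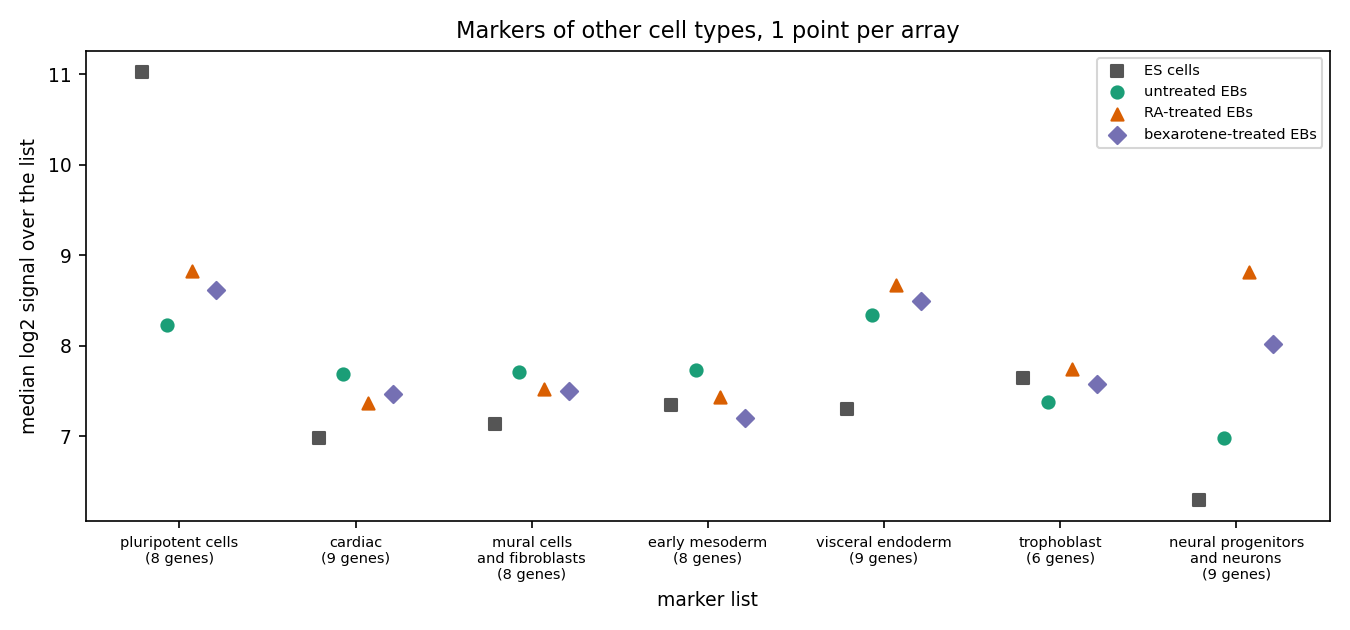
Median log2 signal (y axis) of marker lists of other cell types (x axis) in the 4 arrays, with 1 point per array. Pluripotent markers are highest in ES cells (11.0), cardiac markers are highest in untreated EBs (7.69) and neural markers are highest with RA (8.81).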

How the data were processed

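The authors hybridized RNA of each of 4 mouse cultures to an Affymetrix array and deposited log2 signal per probe set, already background-corrected, normalized and summarized. The article names RMA and the submitters' processing notes GCRMA, both in Affymetrix Expression Console. Of 35556 probe sets, the platform annotation gives 1 gene symbol to 21789, several to 1621 and none to 12146. Symbols were updated by gene ID through RefSeq GRCm38.p6, which matched 21698. A gene stood by its single-symbol probe set of highest mean. Apart from the RefSeq promoters, given on GRCm38.p6, coordinates of genes were not used because the array data name no build.

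Differences between arrays were counted past 1.5-fold, the study's threshold, and no test was possible with 1 array per condition. The yardstick was the scaled median absolute deviation of bexarotene minus RA in 20 bins of signal. The members and lists were chosen with earlier results of these data known. Named genes were every member, every listed endothelial or blood gene past 1.5-fold between EB arrays, the VEGF, angiopoietin and apelin ligands, the other embryonic globins, Etv2, Cdh5 and Runx1, and the 3 genes of most similar pattern to each member past 1.5-fold between EB arrays, without unnamed gene models and small RNAs. Other named genes, among them Eng, Mmrn2, Robo4, Klf1, Alas2, Slc4a1, Fli1, Cldn5, Icam2, Vwf and the named markers of other cell types, were chosen after their values were seen. Alternatives were a threshold of 2-fold, quantile, median and loess scaling (span 0.3), a floor at the 25th percentile, leaving out genes below the median on both arrays, and the mean of probe sets or any probe set. Python 3.11.15, pandas 2.3.3 and statsmodels 0.14.6 were used.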

Additional observations from a re-analysis of the deposited data

Results flagged for a closer look

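Hbb-y, an embryonic beta-like globin, moved in opposite directions with the ligands relative to the 1 untreated EB array. The log2 difference was 0.39 with RA and -0.33 with bexarotene, so RA stood above bexarotene by 0.72, where the yardstick at this signal was 0.121. Its signals were low, 5.82 in untreated EBs, 6.21 under RA and 5.49 under bexarotene. The difference was not tested, since each condition has 1 array.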

How the results depend on the processing

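Of 24 differences past 1.5-fold among the 10 genes over 6 comparisons, 24 were past it in the same direction under quantile, median and loess scaling. The same held with a floor at the 25th percentile, which altered only Hbb-bh1 against ES cells. The mean of probe sets and any probe set could not change the 10 genes, since each has 1 probe set. Loess scaling added Lmo2, at 0.60 in untreated EBs and 0.61 with bexarotene against ES cells, so that 7 rather than 6 of the 10 genes were past 1.5-fold in both comparisons. Of 96 recomputed counts, 89 stayed within 1.5 times the value given. These include the counts of the 10 genes by the mean of probe sets or any probe set, which were bound to stay. At a threshold of 2-fold, 0 of the 10 genes and 0 other endothelial and blood genes differed between bexarotene and RA, 4 of the other genes differed between RA and untreated EBs, 2 between bexarotene and untreated EBs, 15 between RA and ES cells and 14 between bexarotene and ES cells. Without genes below the median on both arrays, 0 of the other genes differed between the ligands. A fold this close to the threshold, such as 1.99-fold for Kdr with bexarotene, is lost at 2-fold. With the floor, Hbb-bh1 in untreated EBs stood 2.58 above ES cells, since its ES cell signal lay below the floor. The precision is limited by the 1 array per condition. No paired analysis was possible because each condition has 1 array, and for the same reason no array could be left out.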

Other observations

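Genes used as arterial, venous or lymphatic markers differed among themselves with the ligands, and Flt4 was past 1.5-fold lower with both and Emcn with RA, as given above. Nr2f2, a nuclear receptor of veins and of many mesenchymal and neural tissues, had log2 signals of 6.11 in ES cells, 9.18 in untreated EBs, 9.88 under RA and 9.82 under bexarotene, and was 1.62-fold and 1.56-fold higher with the ligands than in untreated EBs. Dll4, a Notch ligand of arterial and sprouting endothelium that is also expressed in neural progenitors, had 6.25, 6.68, 7.29 and 7.10, and was 1.52-fold higher with RA. Efnb2, the arterial ephrin, and Ephb4, its venous receptor, differed from untreated EBs by -0.16 and -0.08 with RA and by -0.07 and -0.12 with bexarotene. The arterial connexin genes Gja4 and Gja5 and the lymphatic marker Lyve1 were past 1.5-fold in no comparison.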
